A study of Mus musculus with 12 samples.

Results

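The data describe trimethylation of lysine 4 of histone H3 (H3K4me3) in myotubes compared with myoblasts of the C2C12 line, 2 of the 12 chromatin immunoprecipitation and sequencing (ChIP-seq) libraries of a series that profiled 6 histone marks in both cell states. The members were chosen by their antibody label, with 1 library for each state. C2C12 is a myoblast line from C3H strain mice, used here at passages 15 to 18 with no transgene or drug named in the labels. The myoblasts were near confluence in medium with 10% serum. The myotubes were collected about 5 days after serum was withdrawn and were freed from cells that had not fused by a light trypsin treatment. Each state has a single library and no replicate library, what was merged into its file is not stated, and no input was subtracted, so every ratio compares a pair of libraries and not the conditions, and no test was run.

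H3K4me3 is placed on nucleosomes around transcription start sites (TSSs) by SET1 and MLL complexes, and it marks promoters that are active or ready to be used. In muscle differentiation, myoblasts leave the cell cycle and fuse while the factors Myod1, Myog and the Mef2 family turn on genes of the contractile apparatus. Promoters rich in CpG dinucleotides often carry H3K4me3 in many cell types, whereas promoters poor in CpG tend to carry it where their gene is used.

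The myoblast library held 2774474 uniquely aligned reads and the myotube library 3298694, of which 2770947 and 3294370 lay on chromosomes 1 to 19 and X. Reads were extended to 150 bp, and their midpoints were counted from 1 kb before to 1 kb after 1 TSS for each protein-coding gene, the TSS with the most reads in both libraries together. Of 22331 promoters, 10896 held at least 30 reads in both libraries together and 1608 held none. A promoter was called risen where its myotube to myoblast ratio was at least 2, after 1 read was added to each count and counts were scaled by total reads, and fallen where the ratio was at most 0.5. The ratio of a named promoter is given without the added read. Its exact conditional binomial 95% interval covers counting error only, since reads without molecular identifiers are not independent molecules. In cells studied in bulk, fewer cells with the mark and less of the mark per cell cannot be told apart.

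H3K4me3 rose in myotubes at most tested promoters of the sarcomere and of calcium handling, and at 7 of 13 of the neuromuscular junction. It fell at 34 of 67 promoters of the cell cycle and DNA replication list and at 12 of 26 of the extracellular matrix list. Except for the cell cycle list, whose genes were all tested, these counts depend on the minimum of 30 reads. By total reads 316 promoters were risen, 2.9% of the 10896, and 780 were fallen, 7.16%. Both shares varied with the summed level of a promoter. Among the 2726 tested promoters with the lowest summed level, 191 were risen (7.01%) and 432 fallen (15.85%). Among the 2724 with the highest, 25 were risen (0.918%) and 35 fallen (1.285%). The shares of all tested promoters given beside the gene lists are not matched for level. The median ratio over the 10896 promoters was 0.866, a shift of -0.21 on the log2 scale. Relative to this median, 427 promoters (3.92%) lay at 2 or above and 449 (4.12%) at 0.5 or below, so the risen share of the calls was 28.8% by total reads and 48.7% relative to the median. The counting interval excluded 1 at 314 of the risen and 773 of the fallen promoters. It comes from the same counts as the calls, so this is no separate support for them. Over all 10896 tested promoters the interval lay above 1 at 765 and below 1 at 2819. Tmie, with 20 myoblast and 49 myotube reads, lay just inside the threshold for a rise, and Myl6b, with 34 and 82, just outside it. At the other threshold, Gen1, with 105 and 62 reads, was just inside and Axl, with 36 and 21, just outside.

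The rises were larger than the falls. With 1 read added to each count, a ratio of at least 10 was found at 82 promoters, whereas a ratio of at most 0.1 was found at 3, Has1, Col6a3 and Syt13. Risen promoters held a median of 11 reads in myoblasts and 68.5 in myotubes, and 66 of them held at most 3 reads in myoblasts. Fallen promoters went from a median of 57 reads to 25, and 2 of them held at most 3 reads in myotubes. A deposited H3K4me3 peak overlapped 178 of the risen promoters in myotubes alone and 136 in both states. Of the fallen promoters, 155 had a peak in myoblasts alone and 612 had 1 in both. A rise was thus most often a gain at a promoter with little mark, and a fall most often a reduction at a promoter that still had a peak.

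**Figure D1:**
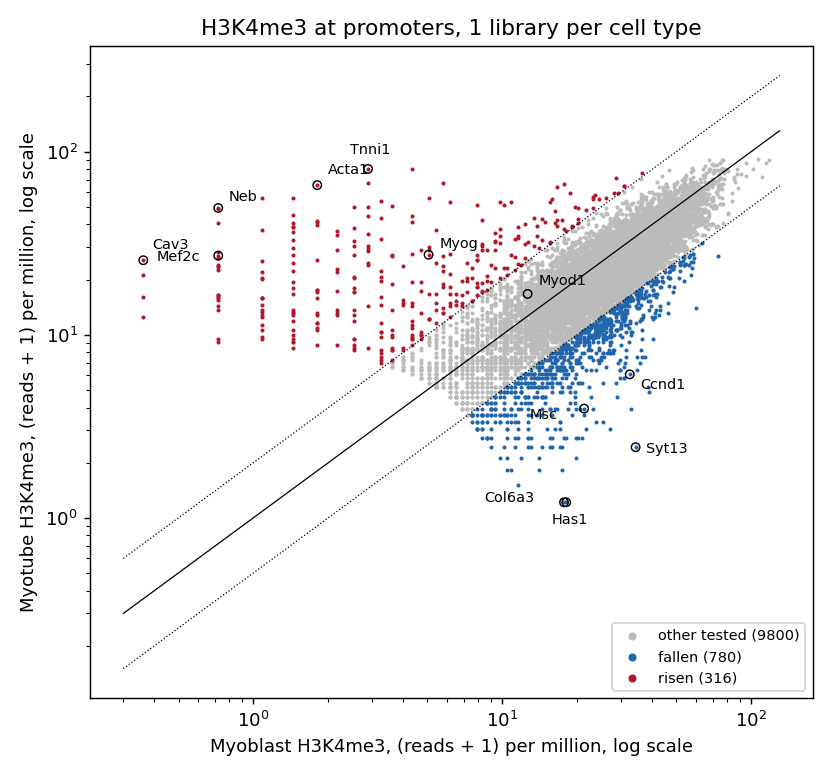
Each point is 1 of the 10896 promoters with at least 30 reads, with myoblast H3K4me3 on the horizontal and myotube H3K4me3 on the vertical axis, in reads per 1000000 reads of the library (RPM) after 1 read was added, on log scales. The solid line marks equal levels and the dotted lines 2-fold differences. The 316 risen promoters reach far to the left, down to 0 myoblast reads at Cav3, while most of the 780 fallen promoters lie close to the lower line.

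The 15 largest rises by ratio included genes of thin filaments and myosin, of the muscle membrane and of the sarcoplasmic reticulum. Cav3, the muscle caveolin of the plasma membrane, had 0 reads in myoblasts and 83 in myotubes, at least 23.3-fold higher when 0 is replaced by a floor of 3 reads, with a counting interval from 18.5 upward. On the same floor Tmem182, a muscle membrane protein, with 0 and 69 reads, was at least 19.3-fold higher (interval from 15.3 upward). Capn3, the muscle calpain, with 0 and 52 reads, was at least 14.6-fold higher (from 11.4 upward). Hdac9, a class II histone deacetylase that binds Mef2 factors, with 0 and 40 reads, was at least 11.2-fold higher (from 8.71 upward). These 4 were the risen promoters without a myoblast read.

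Neb encodes nebulin, the ruler protein of thin filaments, and its promoter had 1 myoblast and 161 myotube reads, a ratio of 135 (24.0 to 5382). Lmod2, a leiomodin that nucleates actin filaments, had 1 and 159 reads, a ratio of 134 (23.7 to 5315). The upper bounds are wide because the myoblast counts are so low. Smpx, a small muscle protein, had 1 and 133 reads, and the fast myosin heavy chain Myh1 had 1 and 85 in a window shared with the gene model Gm10995. Casq2, the calcium store protein calsequestrin, had 2 and 183 reads, a ratio of 77.0 (21.0 to 640). Srl, a sarcoplasmic reticulum glycoprotein, had 3 and 183 reads. Acta1, skeletal muscle actin, had 4 and 215 reads, a ratio of 45.2 (17.4 to 167). The other promoters among the 15 largest rises were Hephl1, a copper oxidase related to hephaestin, with 1 and 92 reads, Mef2c with 1 and 88, the Z-disc protein Myoz2 with 2 and 122 and the fast troponin I gene Tnni2 with 1 and 78.

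The sequences before 5 of the risen promoters and 1 fallen promoter show letters that recur in the comparison of sequences given further on. Each is the 250 bases before the TSS on the strand of the gene, from the mm9 reference genome. Capitals mark an E-box CAGCTG, a MEF2 motif, a CArG box or a TATA box TATAAA found on either strand, with no E2F motif in any of the 6. Cav3 lies at chr6:112409245-112409494 on the plus strand, Acta1 at chr8:126418652-126418901 on the minus strand, Myoz2 at chr3:122737909-122738158 on the minus strand, Pgam2 at chr11:5703737-5703986 on the minus strand, Chrng at chr1:89102136-89102385 on the plus strand and Mybl2 at chr2:162880173-162880422 on the plus strand. The annotation places the Acta1 stretch within the gene model Gm20388 as well, and the other 5 stretches overlap no other gene.
Cav3: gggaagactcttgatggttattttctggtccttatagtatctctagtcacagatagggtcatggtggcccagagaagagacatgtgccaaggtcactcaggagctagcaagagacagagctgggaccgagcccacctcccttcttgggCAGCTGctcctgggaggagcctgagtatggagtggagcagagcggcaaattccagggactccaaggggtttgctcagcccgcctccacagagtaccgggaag
Acta1: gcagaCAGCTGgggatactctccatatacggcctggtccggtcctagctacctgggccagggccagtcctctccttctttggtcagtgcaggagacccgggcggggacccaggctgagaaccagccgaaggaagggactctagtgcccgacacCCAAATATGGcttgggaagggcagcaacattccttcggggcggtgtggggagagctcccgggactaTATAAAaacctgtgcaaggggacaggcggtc
Myoz2: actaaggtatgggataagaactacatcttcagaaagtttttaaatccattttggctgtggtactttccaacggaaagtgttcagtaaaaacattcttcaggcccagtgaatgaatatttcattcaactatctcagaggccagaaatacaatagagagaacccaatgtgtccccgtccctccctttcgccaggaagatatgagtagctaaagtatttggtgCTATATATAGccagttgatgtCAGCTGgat
Pgam2: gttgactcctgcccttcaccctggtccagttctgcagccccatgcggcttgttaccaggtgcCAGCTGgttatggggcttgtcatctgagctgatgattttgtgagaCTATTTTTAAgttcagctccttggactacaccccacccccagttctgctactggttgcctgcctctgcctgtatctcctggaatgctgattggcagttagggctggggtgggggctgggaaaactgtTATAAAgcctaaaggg
Chrng: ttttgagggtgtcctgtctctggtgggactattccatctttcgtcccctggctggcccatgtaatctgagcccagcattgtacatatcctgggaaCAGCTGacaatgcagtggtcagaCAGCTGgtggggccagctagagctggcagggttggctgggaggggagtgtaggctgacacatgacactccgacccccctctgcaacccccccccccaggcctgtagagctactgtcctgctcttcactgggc
Mybl2: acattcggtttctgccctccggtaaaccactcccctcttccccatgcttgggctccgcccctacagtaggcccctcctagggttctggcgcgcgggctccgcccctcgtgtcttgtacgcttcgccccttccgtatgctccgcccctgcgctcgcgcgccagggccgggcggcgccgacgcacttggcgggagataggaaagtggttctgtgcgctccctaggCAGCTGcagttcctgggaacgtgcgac
Acta1 holds an E-box, a CArG box and a TATA box, and Pgam2 an E-box, a MEF2 motif and a TATA box. Myoz2 has its MEF2 motif and its E-box within the last 30 bases before the TSS. Chrng, the fetal subunit of the acetylcholine receptor, holds 2 E-boxes. Mybl2, a fallen promoter, holds 1 E-box, so the letters are found on both sides of the comparison. A match describes the sequence and does not show a bound factor.

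The sarcomere and Z-disc list had the highest median ratio of the lists. Of its 60 genes, 47 held at least 30 reads, 38 of these were risen and 0 fallen, and the median ratio was 12.9 beside 0.866 over all tested promoters. The count of 38 was the same relative to the all-promoter median. Over all tested promoters 2.9% were risen by total reads and 3.92% relative to the median. In myoblasts alone 10 of the 47 reached 30 reads and in myotubes all 47 did, so the share and the median depend on the minimum of reads. Summed over all 60 genes, which needs no minimum, the level was 422 RPM in myoblasts and 1865 in myotubes. Neb and Lmod2 rose most within it. Not all of the list moved, and desmin (Des), with 72 and 85 reads, and the tropomyosin gene Tpm1, with 96 and 150, were not called. In RPM the 5 largest rises of the whole comparison were Tnni1, Tnnc1, Mylpf, Acta1 and Ttn. Tnni1, the slow troponin I gene, went from 2.53 to 80.1 RPM, and Tnnc1, the slow troponin C gene, went from 3.97 to 80.4 in a window shared with Nisch. Mylpf, a fast myosin light chain, went from 2.53 to 67.4, and Ttn, which encodes the spring protein titin, from 5.41 to 67.4.

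Of 28 genes for calcium handling and excitation, 21 were tested, 16 were risen and 0 fallen, with a median ratio of 3.75. Over all tested promoters 2.9% were risen and 7.16% fallen. Only 8 of the 21 reached 30 reads by myoblast reads alone and 20 by myotube reads alone. The share and the median thus depend on the minimum of reads. Summed over all 28 genes, the level was 302.8 RPM in myoblasts and 697.9 in myotubes. Casq2 and Srl led the list, and Ryr1, the calcium release channel, had 25 and 118 reads, a ratio of 3.97 (2.56 to 6.38). Of 15 neuromuscular junction genes, 13 were tested and 7 risen, with a median of 2.41. By myoblast reads alone 7 of the 13 reached 30 reads and by myotube reads alone 12 did, so these values depend on the minimum too. The level summed over all 15 genes was 198.5 RPM in myoblasts and 414 in myotubes. Colq, the collagen tail of acetylcholinesterase, had 2 and 51 reads, a ratio of 21.4 (5.64 to 182), and Chrng had 7 and 80, a ratio of 9.61 (4.46 to 24.7). Agrn, which encodes the nerve-derived organizer agrin, was fallen by total reads with 22 and 11 reads, and no gene of the list was fallen relative to the median.

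Muscle energy metabolism had 17 of 25 genes tested, 9 risen and a median ratio of 2.11. Of the 17, 6 reached 30 reads by myoblast reads alone and 16 by myotube reads alone. The count and the median thus depend on the minimum of reads. All 25 genes together summed to 185.9 RPM in myoblasts and 401 in myotubes. Pgam2, the muscle phosphoglycerate mutase, had 1 and 76 reads, a ratio of 63.9 (11.1 to 2558). Art1, an ADP-ribosyltransferase of the muscle surface whose window overlaps that of Art5, had 3 and 126 reads, a ratio of 35.3 (11.8 to 174). Phka1, a regulatory subunit of phosphorylase kinase, was fallen by total reads, with 51 and 26, and was not called relative to the median. The list for fusion, adhesion and membrane repair had 23 of 26 annotated genes tested, 6 risen and 2 fallen, beside 2.9% and 7.16% of all tested promoters, and a median ratio of 1.08. Dysf, the membrane repair protein dysferlin, had 5 and 115 reads, a ratio of 19.3 (8.05 to 60.7). The fallen genes were Dock1, an activator of Rac, with 51 and 16 reads, and the adhesion receptor Kirrel with 99 and 47. Tmem8c and Gm7325, later named myomaker and myomixer for their part in fusion, were singled out after their values were seen and had 13 and 183 reads and 3 and 44 reads.

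**Figure D2:**
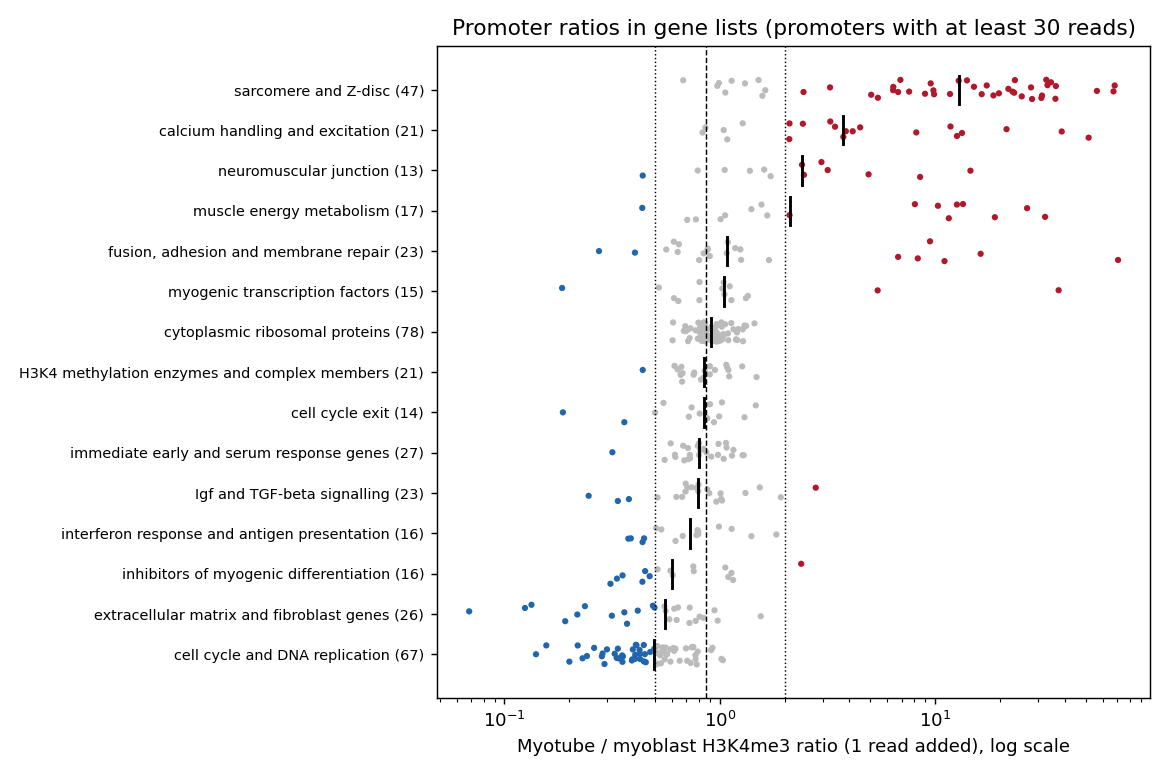
Each point is the myotube to myoblast H3K4me3 ratio, with 1 read added, of a promoter with at least 30 reads, on a log scale, grouped by gene list with the number of promoters in parentheses. Black bars are list medians, the dashed line is the all-promoter median of 0.866 and the dotted lines mark ratios of 0.5 and 2. The medians run from 12.9 for the sarcomere list to 0.496 for the cell cycle list.

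The myotube label fits its marker genes, whereas the myoblast markers moved in different directions. Of 8 myotube markers all were tested and 7 were risen, with summed levels of 54.9 RPM in myoblasts and 334 in myotubes. Myh3, the embryonic myosin heavy chain, had 6 and 106 reads, a ratio of 14.9 (6.61 to 41.4). Ckm, muscle creatine kinase, had 2 and 44 reads in a window shared with the gene model Gm17405, and Tnnt3, the fast troponin T gene, had 4 and 135. Chrna1, a subunit of the acetylcholine receptor, had 83 and 171 reads, a ratio of 1.73 (1.33 to 2.28), and was the marker not called. Of 5 myoblast markers the median ratio was 0.978, 3 lay above the all-promoter median and 1 was fallen, the repressor Msc (musculin), with 58 and 12 reads, a ratio of 0.174 (0.0851 to 0.328). Myf5 had 49 and 30 reads, Myod1 34 and 54, and Cdh15, the muscle cadherin, 68 and 102. The intermediate filament gene Vim had 147 and 171 reads, a ratio of 0.978 (0.780 to 1.23), which lies below 1 by total reads and above the all-promoter median.

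The promoters of the myogenic transcription factors differed in how they moved. Of 20 genes, 15 were tested, 2 were risen and 1 was fallen, beside 2.9% and 7.16% of all tested promoters, with a median ratio of 1.04. Myog, which drives terminal differentiation, had 13 and 89 reads, a ratio of 5.76 (3.20 to 11.2). Mef2c, a partner of the myogenic factors, had a ratio of 74.0 (12.9 to 2956) at its most marked TSS. Myod1, the factor that sets the myoblast lineage, had a ratio of 1.34 (0.854 to 2.12), and was not called. Myf5, its early relative, had a ratio of 0.515 (0.316 to 0.828), and was not called either. The homeodomain gene Six4, with 106 and 77 reads, had an interval below 1. Ratios between 0.803 and 1.36 were found within 1 kb of the TSS at Eya4, Mef2a, Mef2d, Smarcd3, Tead4, Klf5, Nfix and Eya1. From 1 to 3 kb downstream, Tead4 had 41 and 246 reads, Klf5 53 and 223, Mef2a 24 and 99 and Mef2d 83 and 179. In the same stretch Eya4 had 36 and 72 reads, Nfix 34 and 45, Smarcd3 16 and 23 and Eya1 62 and 44. Within 1 kb of the TSS, Myf6, Mef2b, Rxrg, Pax3 and Pax7 held fewer than 30 reads, so no call was made there. Pax7 had 15 and 7 and the others at most 11 in a library, and a fall or a small rise from such counts could not have been seen. A deposited peak overlapped the Myf6 window in myotubes and none did in myoblasts. Further downstream, from 1 to 3 kb, Myf6 had 12 and 32 reads and Pax7 12 and 7.

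Among the lists of gene function, cell cycle and DNA replication had the lowest median ratio, 0.496, and all of its 67 genes were tested. By total reads 34 were fallen and 0 risen, and 28 were fallen relative to the median. Mybl2, a Myb factor of the G1 to S transition, had 59 and 9 reads, a ratio of 0.128 (0.0559 to 0.260). Ccnb2, a mitotic cyclin, had 42 and 7 reads, a ratio of 0.140 (0.0531 to 0.315). Some genes of the list kept their level, such as Cdc45, with 178 and 193 reads, and Rrm1, with 47 and 58. Of 18 genes for cell cycle exit, 14 were tested and 2 were fallen, beside 7.16% of all tested promoters. They were the D-type cyclins Ccnd1, with 89 and 19 reads and a ratio of 0.180 (0.103 to 0.297), and Ccnd2, with 34 and 14. The inhibitor Cdkn1a had 143 and 169 reads at its most marked TSS, and 4 and 36 at a TSS 4.44 kb away, a ratio of 7.57 (2.71 to 29.3). Cdkn2a, Cdkn2b and Cdkn2d held 0 reads in both libraries.

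The largest falls by ratio mixed matrix, signalling and proliferation genes. Has1, a hyaluronan synthase, had 49 and 3 reads, a ratio of 0.0515 (0.0103 to 0.160). Col6a3, a chain of collagen VI, had 48 and 3 reads, a ratio of 0.0526 (0.0105 to 0.163). Syt13, a synaptotagmin, had 94 and 7 reads, a ratio of 0.0626 (0.0245 to 0.134). These promoters were left with few reads in myotubes. Next came the sulfotransferase gene Chst1 with 47 and 5 reads, the collagen receptor gene Mrc2 with 54 and 6, the scaffold gene Iqgap3 with 74 and 9 and the atypical E2F repressor gene E2f7 with 90 and 12. Col4a2, a basement membrane collagen whose window overlaps that of Col4a1, had 107 and 15 reads, a ratio of 0.118 (0.0638 to 0.203). Also among the 15 largest falls were Aqp1, a water channel, with 38 and 5 reads, the stress cytokine gene Gdf15 with 31 and 4, the urokinase receptor gene Plaur with 69 and 10, Eps8, an actin regulator, with 65 and 10, the phosphatase subunit gene Ppp2r2b with 47 and 7, whose 5′-most TSS had a ratio of 1.68, and Mybl2. In RPM the 5 largest falls were the actin bundler gene Fscn1, from 72.9 to 26.7, Rai14, another actin-associated gene, from 59.5 to 13.7, the corepressor gene Sap130, from 110 to 72.5, the mitochondrial protease gene Htra2, from 76.5 to 40.4 in a window shared with Aup1, and the nuclear envelope gene Tmpo, from 57.0 to 20.9. Sap130 and Htra2 stayed above a ratio of 0.5.

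Extracellular matrix and fibroblast genes had 26 of 40 members tested, 12 fallen by total reads, 10 relative to the median, 0 risen and a median ratio of 0.557. Over all tested promoters 7.16% were fallen by total reads and 4.12% relative to the median. Of the 26, 23 reached 30 reads by myoblast reads alone and 14 by myotube reads alone. The counts and the median thus depend on the minimum of reads. All 40 genes together summed to 763.3 RPM in myoblasts and 423.1 in myotubes. Of 19 inhibitors of myogenic differentiation, 16 were tested and the median ratio was 0.597. In this list 6 genes were fallen by total reads and 3 relative to the median, beside the same 7.16% and 4.12% of all tested promoters. Hmga2, an architectural chromatin protein, had 110 and 40 reads, a ratio of 0.306 (0.207 to 0.443), and Id3, which blocks the partners of Myod1, had 100 and 39, a ratio of 0.328 (0.221 to 0.479). Zeb1, a zinc finger repressor whose window overlaps that of the gene model Gm10125, was risen with 30 and 87 reads, a ratio of 2.44 (1.59 to 3.83), but had a ratio of 0.591 at its 5′-most TSS.

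The lists for signals from outside the cell are given beside 2.9% risen and 7.16% fallen over all tested promoters, not matched for level. Immediate early and serum response genes had 27 of 29 members tested, 1 fallen and a median of 0.801. The fallen gene was Fosl1, an AP-1 subunit, with 113 and 42 reads, a ratio of 0.313 (0.214 to 0.449). Igf and TGF-beta signalling had 23 of 30 tested, 1 risen, 3 fallen and a median of 0.795. Its risen gene was Fst, which encodes the activin and myostatin antagonist follistatin, with 40 and 135 reads, a ratio of 2.84 (1.98 to 4.15). The growth factor binding genes Igfbp2, with 81 and 23 reads, and Igfbp7, with 34 and 13, fell. Relative to the median, 2 genes of this list were risen and 3 fallen. Interferon response and antigen presentation had 16 of 27 tested, 4 fallen and a median of 0.726, with 2 fallen and 1 risen relative to the median. Its largest falls were at Psmb9, with 37 and 16 reads, and Tap1, with 36 and 16, an immunoproteasome and a peptide transporter gene that share a window.

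All 21 promoters of H3K4 methylation enzymes and their partners were tested, with 0 risen and 1 fallen, beside 2.9% and 7.16% of all tested promoters. Their median of 0.841 was close to the all-promoter value. The fallen gene was the methyltransferase gene Smyd2, with 68 and 35 reads, a ratio of 0.433 (0.279 to 0.660), and it was not called relative to the median. Of 82 cytoplasmic ribosomal protein genes, 78 were tested, none was called and the median ratio was 0.914, below 1 by total reads and above the all-promoter median. The 5 highest promoters in myoblasts were Plekhj1, with 326 reads, Sap130, with 304, Sharpin, with 281, Myl6, with 262, and Eif3d, with 251. The 5 highest in myotubes were Ftsj3, with 296, Plekhj1 and Recql5, each with 295, Tatdn1, with 285, and Myl6, with 284. None of these 8 promoters was called. The windows of Plekhj1, Sharpin, Ftsj3, Recql5 and Tatdn1 each overlap that of a neighbouring gene, Sf3a2, Maf1, Psmc5, Sap30bp and Ndufb9 in that order.

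Markers of other cell types held from few reads, for endothelium, leukocytes and epithelium, to a summed level near that of the myotube markers in myoblasts, for smooth muscle and for bone and cartilage. Of 6 endothelial markers, 6 leukocyte markers and 5 epithelial markers none reached 30 reads in both libraries together. The endothelial list summed to 11.5 RPM in myoblasts and 5.77 in myotubes, with Kdr highest. The leukocyte list summed to 7.58 and 3.95, with Cd68 highest, and the epithelial list to 3.61 and 4.55, with Cdh1 highest and Krt18 at 0 in both. For neurons 1 of 7 annotated markers was tested, Stmn2, and the list summed to 15.5 and 11.2. For heart 1 of 7 was tested, Gata4, at 64 and 60 reads, and the list summed to 28.5 and 25.5. For fat cells 2 of 7 were tested, the list summed to 29.9 and 23.7 with Pparg highest, and Fabp4 was at 0 in both. For bone and cartilage 1 of 9 was tested, Runx2, with 130 and 76 reads, fallen by total reads and not relative to the median, and the list summed to 52.7 and 29.4. For smooth muscle 2 of 6 were tested, the list summed to 62.8 and 96.2, and Acta2, an actin of smooth muscle, was highest and risen, with 71 and 182 reads, a ratio of 2.16 (1.63 to 2.88). The part of other cell types in the falls and rises was not tested.

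Some genes gained the mark at 1 TSS while another TSS did not pass 2-fold. Of 409 genes with 2 TSSs at least 3 kb apart that each held 30 reads, 90 had 1 risen TSS and another that was neither risen nor fallen, and 64 had 1 fallen TSS and another that was neither. Over all annotated TSSs, 719 of 22264 with at least 30 reads were risen and 1515 fallen, and whether the counts per gene differ from these shares was not tested. The genes described here were picked by the size of the contrast. Tpm3, a tropomyosin gene, had 3 and 146 reads at chr3:89876616, a ratio of 40.9 (13.7 to 201), and 142 and 111 reads at a TSS 7.75 kb away, a ratio of 0.657 (0.508 to 0.849). Mef2c had 1 and 88 reads at chr13:83643033 and 40 and 39 reads at a TSS 20.9 kb downstream. Myl4, an embryonic myosin light chain, had 1 and 105 reads at a TSS 26.6 kb downstream of a TSS with 110 and 139. Fbxw7, a ubiquitin ligase subunit, had 4 and 130 reads at a TSS 110 kb downstream of another with 54 and 64. Pfkm, muscle phosphofructokinase, had 3 and 87 reads at its risen TSS and 79 and 95 at the other.

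In 6 genes 1 TSS was risen and another fallen. Palld, which encodes the actin scaffold palladin, had 3 and 127 reads at chr8:64381487, a ratio of 35.6 (11.9 to 175), and 70 and 17 reads at a TSS 312 kb away, a ratio of 0.204 (0.113 to 0.351). Fhl1, a LIM protein of muscle, had 0 and 42 reads at 1 TSS, at least 11.8-fold higher against the floor of 3 reads with an interval from 9.16 upward, and 35 and 14 at the other. The scaffold kinase gene Ksr1 had 7 and 50 reads at 1 TSS and 71 and 31 at the other. The cytoskeletal linker gene Plec had 9 and 28 against 54 and 18. Dst, which encodes the linker dystonin, had 48 and 141 against 128 and 51. Tiam2, an activator of Rac, had 8 and 25 against 95 and 55.

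The sequences of risen promoters were compared with those of tested promoters and of all promoters. Over 300 bases, from 250 before to 50 after the TSS, the median ratio of observed to expected CpG was 0.379 at risen, 0.780 at fallen and 0.817 at all tested promoters, and 0.579 over all 22331. A ratio under 0.4 was found at 169 of the 316 risen promoters, 53.5%, at 10% of the fallen and at 6.47% of all tested promoters. Over all 22331 promoters the share was 38.6%, and under the minimum of 30 reads it was 69.1%. The minimum thus removes most promoters with low CpG, and risen promoters pass it mainly by their myotube reads, so the contrast with tested promoters depends on the filter. Median GC content was 56.3% at risen promoters, the same as over all promoters, 65.3% at fallen and 63% at all tested promoters.

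Both strands of the same 300 bases were searched for 5 motifs. The E-box CAGCTG was present in 34.8% of risen, 18.2% of fallen and 14.8% of all tested promoters, and in 15.3% of all 22331 promoters. The MEF2 motif was in 10.4%, 1.03% and 1.40%, with 2.86% over all 22331. The CArG box was in 2.85%, 1.79% and 1.13%, with 1.37% over all. The TATA box TATAAA, which can overlap a MEF2 motif, was in 38 of the 316 risen promoters, in 5.26% of fallen and 5.56% of tested promoters and in 12.9% of all, so its share at risen promoters was close to that of all promoters. The E2F motif TTTCCCGC or TTTGGCGC was in 1.27%, 3.72% and 3.30%, with 2.03% over all. Since CpG content differs between these sets, the shares were also taken among tested promoters with a CpG ratio under 0.4. There the E-box was in 43.2% of 169 risen and 20.9% of 536 other promoters, and in 17.0% of all 8611 promoters with such a ratio, tested or not. The MEF2 motif was in 16.0%, 1.87% and 5.09% of the same sets. In the gene lists, of 47 tested sarcomere promoters 14 held an E-box, 9 a MEF2 motif and 0 an E2F motif. Of 21 for calcium handling the counts were 11, 1 and 0, and of 67 for the cell cycle 10, 1 and 17.

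**Figure D3:**
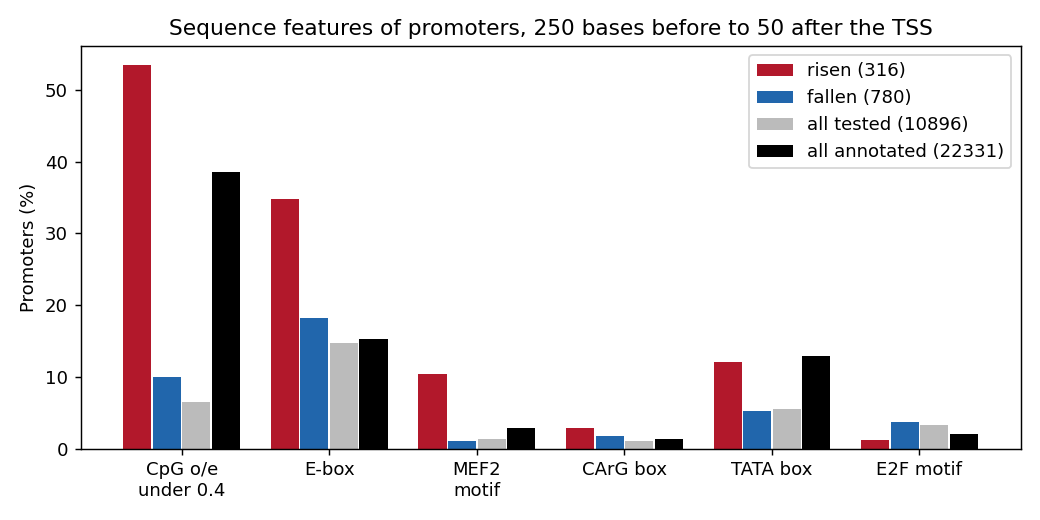
Bars give the percent of 316 risen, 780 fallen, all 10896 tested and all 22331 annotated promoters with a ratio of observed to expected CpG under 0.4 or with each motif, in the 300 bases around the TSS. The E-box is in 34.8% of risen and 15.3% of all annotated promoters and the MEF2 motif in 10.4% and 2.86%, while low CpG is found at 53.5%, 6.47% and 38.6% of risen, tested and annotated promoters.

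The shape of the signal differed too. In myotubes the H3K4me3 peaks over risen promoters had a median width of 3026 bp, and 101 of 314 were at least 4 kb wide, 32.2%. Over promoters that were neither risen nor fallen the median was 2240 bp, and 8.06% were that wide. The myotube peak at Acta1 spanned 8757 bp, that at Tnnc1 9817 bp and that at Ttn 5627 bp. From 1 to 3 kb downstream of the TSS, risen promoters held 0.605 reads in myotubes for each read within 1 kb of the TSS, beside 0.320 in myoblasts. At fallen promoters these values were 0.386 in myotubes and 0.289 in myoblasts, and at promoters neither risen nor fallen 0.255 and 0.182, so the myotube library held relatively more reads downstream in all of these sets. At fallen promoters wide peaks became fewer, with 93 of at least 4 kb in myoblasts and 17 in myotubes. MACS widths also move with the height of a peak and the depth of a library, whose part was not tested.

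**Figure D4:**
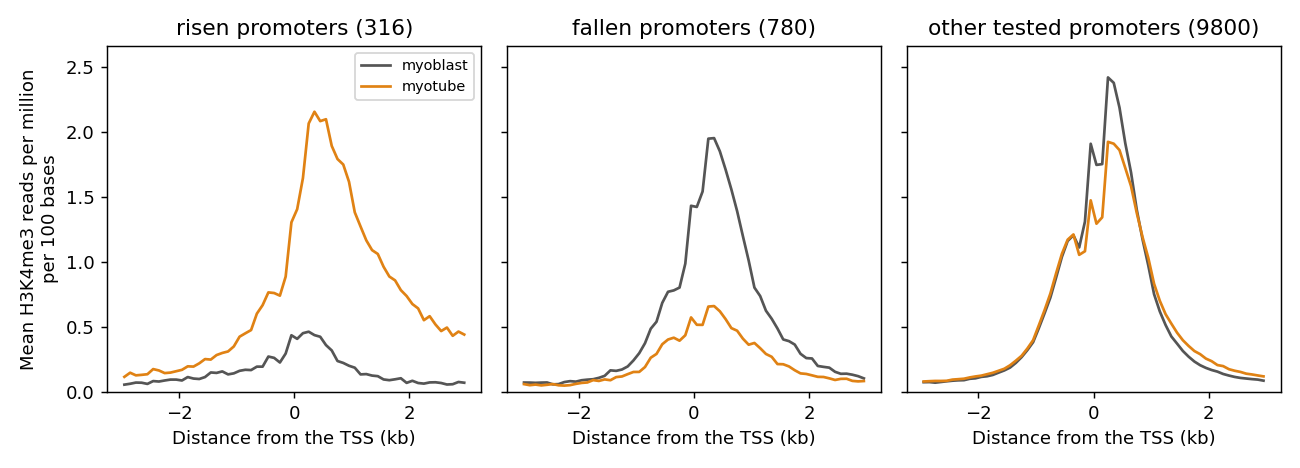
Lines give mean H3K4me3 RPM in bins of 100 bases against distance from the TSS, with downstream to the right, for 316 risen, 780 fallen and 9800 other tested promoters in myoblasts and in myotubes. The myotube signal at risen promoters extends beyond 2 kb downstream. At the other tested promoters the myoblast line is higher close to the TSS and the myotube line slightly higher further downstream.

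The other marks of the series, each from its own pair of libraries, moved in part with H3K4me3. The median ratio over tested promoters was 1.03 for H3K4me1, 0.860 for H3K36me3, 0.840 for H3K27me3, 0.620 for H3K4me2 and 0.558 for H3K27ac, and the medians that follow are divided by these where given in times. At risen promoters H3K27ac, a mark of active promoters and enhancers, went from a median of 7 reads to 88.5 in libraries of 1857191 and 4721345 reads. Its median ratio scaled by these totals was 3.02, 5.40 times the median of tested promoters. H3K4me2 was at 2.12 times and H3K36me3, a mark of transcribed gene bodies counted from 1 to 6 kb after the TSS, at 2.44 times. H3K4me1, most common at enhancers, was at 0.902 times. At fallen promoters the values were 0.516 times for H3K27ac, 0.663 times for H3K4me2, 0.722 times for H3K36me3 and 0.667 times for H3K4me1. The ratios of single promoters are scaled by total reads, with 1 read added, and are not divided by the median. At Acta1 H3K27ac had 6 reads in myoblasts and 489 in myotubes, a ratio of 27.5. At Syt13 it had 66 and 5, a ratio of 0.0352, and at Ccnd1 65 and 8, a ratio of 0.0536.

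**Figure D5:**
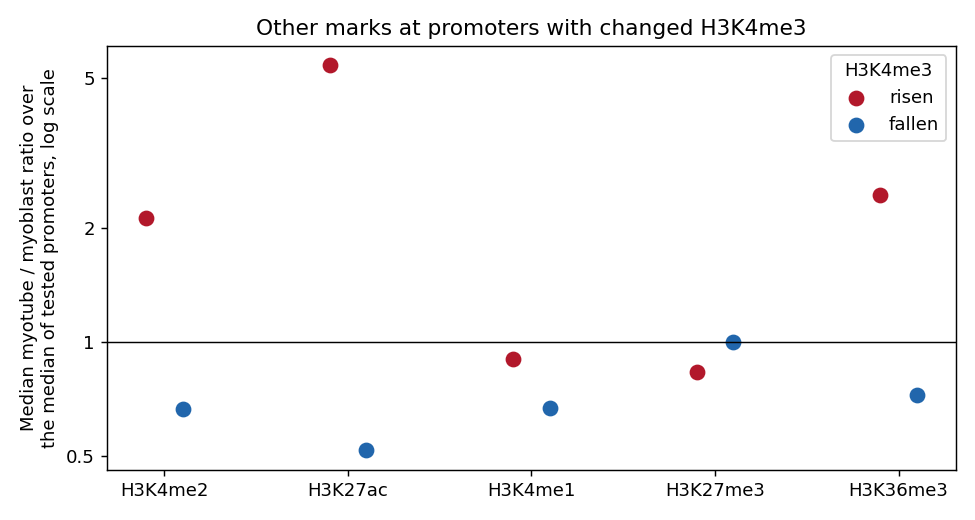
Points give, for 5 other marks, the median myotube to myoblast ratio at promoters with risen or fallen H3K4me3, divided by the median ratio of all tested promoters, on a log scale where 1 is no difference from them. H3K27ac lies at 5.40 for risen and 0.516 for fallen promoters, and H3K27me3 at 0.833 and 1.

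H3K27me3, the mark of Polycomb repression, was present in myoblasts at a subset of the promoters that rose. A level of at least 3 times the library mean was found at 42 of 316 risen promoters in myoblasts, 13.3%, and at 3 in myotubes, 0.949%. Among all tested promoters the shares were 1.71% and 0.661%. Among promoters under 30 H3K4me3 reads they were 18.5% and 12.9%. Acta1 had 31 H3K27me3 reads in myoblasts and 6 in myotubes, Myh3 28 and 6 and Colq 23 and 5, in libraries of 7011383 and 5010146 reads. Fallen promoters held this level at 29 of 780 in myoblasts and at 17 in myotubes.

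Few changed promoters lay close to another of their kind. After promoters with overlapping windows were reduced to 1, 302 of 9681 tested promoters were risen and 739 fallen. A neighbour of the same class lay within 50 kb of 14 risen (4.64%) and 44 fallen promoters (5.95%). A tested neighbour of any class lay that close to 5412 of the 9681 (55.9%). Whether the counts of 14 and 44 differ from what the shares of risen and fallen promoters alone would give was not tested. The risen neighbours were Chrnd and Chrng, subunits of the acetylcholine receptor, Chrnb1 and Fgf11, Myog and Ppfia4, Fam78a and Ppapdc3, a run of Slc2a6, Tmem8c and Adamtsl2, and a run of Rab40b, Fn3krp and Fn3k. Among fallen neighbours were the Polycomb genes Cbx2 and Cbx8, 18.0 kb apart. All of these genes were singled out once their values were known.

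The deposited peak lists held 12583 H3K4me3 peaks in myoblasts and 17912 in myotubes on the same chromosomes. An overlap of at least 1 base was found for 91% of the myoblast and 69.6% of the myotube peaks. The 5442 peaks of the myotube list alone were narrow, with a median width of 914 bp, and held a median of 12 myotube and 3 myoblast reads. Of these, 17.3% lay within 1 kb of an annotated TSS, against 86.5% of the myotube peaks shared with myoblasts. The 1133 peaks of the myoblast list alone held a median of 13 myoblast and 7 myotube reads, and 45.9% lay that close to a TSS. The lists were called separately in libraries of different depth, whose part was not tested.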

How the data were processed

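The authors kept reads with a unique alignment to mm9, and their methods name Mosaik for the myoblast libraries. The deposited read files hold 1 line per aligned read of 34 bases, each with a count of 1 and no normalization; what was merged into each file is not stated. The deposited peak files hold the score that MACS gave each peak within its own list, and the settings and any control are not given in the sources used here. Between 0.417% and 0.876% of the reads of the 2 H3K4me3 libraries had the same position and strand as another read of their library.

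TSSs came from GENCODE M1 (Ensembl 65), with gene entries that share a symbol and TSS merged, and promoter sequences from the reference of the same build. H3K36me3 was counted within the gene, where at least 1 kb of it lay in the window. Named genes were the 15 largest rises and falls by ratio among promoters with at least 30 reads, without clone or model names and with 1 gene per group of overlapping windows; the 5 largest in RPM; the 5 highest in each library; all myogenic factors and myoblast and myotube markers; and up to 2 rises and 2 falls past 2-fold from each other list. Further genes are marked as singled out, or illustrate a list. Some genes that the rule names are not reported here. The members and lists were chosen with earlier results of these data known. Alternatives changed the fold, the filter, the added reads, the scaling, the window, the TSS, duplicates, the read position and the depth. The steps were tested on simulated data. The software was Python 3.11.15 with scipy 1.17.1, matplotlib 3.10.9, pandas 2.3.3 and numpy 2.4.6.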

Additional observations from a re-analysis of the deposited data

How the results depend on the processing

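The count of risen promoters, 316 as reported, was 615 at a ratio of 1.5, 197 at a ratio of 3, 570 with at least 10 reads, 1665 with no minimum and 485 in the 2 kb downstream of the TSS. The count of fallen promoters, 780 as reported, was 2349 at a ratio of 1.5, 183 at a ratio of 3, 3160 with no minimum and 449 when scaled by the median of promoters with a peak in both libraries. Under the other alternatives, 1 promoter per group of overlapping windows among them, which was chosen after seeing the data, both counts lay within 1.5 times the reported ones. Similar counts do not mean the same promoters. Within 500 bp 187 of the 316 risen and 498 of the 780 fallen promoters were called again, and within 2 kb 292 and 584. The median ratio, 0.866 as reported, was 0.841 with no minimum, 0.895 when scaled by 10 kb windows without a peak, 0.798 within 500 bp, 0.909 within 2 kb and 0.880 in the 2 kb downstream; scaling by the median of promoters with a peak in both sets it to 1. That median equals the one over all tested promoters because, of those without a peak in both, 295 lay above it and 295 below. The split of the calls moved with the fold, the scaling and the window. The risen share, 28.8% as reported, was 51.8% at a ratio of 3, 48.7% relative to the median and 17.3% within 500 bp.

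Of 1152 values of the 96 named genes, 1117 lay within their counting intervals, 33 moved beyond them and 2 reversed. The alternatives use the same reads, and some intervals are very wide, such as 24.0 to 5382 at Neb, so a value within its interval says little. Of 722 counts of risen or fallen genes in the lists, 631 were the same and 91 moved. At the 5′-most TSS, Zeb1 had a ratio of 0.591 and Ppp2r2b a ratio of 1.68; the cause was not tested. The share of overlapped peaks was 87.7% of myoblast and 67.6% of myotube peaks where at least 50% of the peak had to be covered, a setting named in the design and listed later, and 96.8% and 86.8% among peaks with a score of at least 100, a value chosen after seeing the data. Depth limits the comparison to promoters with enough reads. Of 22331 promoters, 11435 held fewer than 30, and rises from a few myoblast reads have wide intervals. No paired analysis was possible because there is 1 library per group, and no interval holds the spread between cultures.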

Other observations

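Some genes that do not code for protein also gained H3K4me3. Of 8115 annotated noncoding genes outside 2 kb of any protein-coding TSS, 349 held at least 30 reads in both libraries together. Of these, 43 were risen and 19 fallen, with a median ratio of 1.02. Among 10896 tested protein-coding promoters 316 were risen (2.9%) and 780 fallen (7.16%). A noncoding gene can reach the minimum by its myotube reads alone, so the counts and the median depend on the minimum. The window at the hairpin of Mir1a-1, a microRNA of muscle, had 2 myoblast and 160 myotube reads, a ratio of 67.3 (18.3 to 560). Mir206, another muscle microRNA, had 9 and 25 reads, a ratio of 2.34 (1.05 to 5.69). For microRNAs the annotation gives the hairpin and not the start of the primary transcript. H19, an imprinted RNA, had 15 and 66 reads, a ratio of 3.70 (2.09 to 6.98), and Nctc1, a muscle transcript near it, had 1 and 33, a ratio of 27.8 (4.65 to 1129). These genes were picked after their values were seen, and they reached 30 reads mainly by their myotube reads.

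The deposited myotube list held more H3K4me3 peaks far from annotated starts. More than 5 kb from any annotated TSS lay 1532 of the myoblast peaks, 12.2%, and 4523 of the myotube peaks, 25.3%. The lists differ in length and come from libraries of different depth, and peaks were not called again at equal depth. The median ratio of H3K4me3 at promoters differed little between chromosomes, from 0.805 on chromosome 18 to 0.913 on chromosome X. Reads outside peaks, scaled by total reads, had a ratio of 0.968, from 0.918 on chromosome 18 to 1.08 on chromosome X. Tested promoters, reduced to 1 for each group of overlapping windows, held 25.3% of the myoblast and 22.4% of the myotube reads, while each library's own peaks held 33.7% and 34.5%.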
